A study of Mus musculus with 36 samples.

Results

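The 9 genes described here handle zinc in the cell, and they were taken from 19879 genes in RNA-seq of BV-2 cells, an immortalized line of mouse microglia of wild-type genotype. They are the metallothioneins Mt1 and Mt2, the exporters and vesicle loaders Slc30a1, Slc30a4 and Slc30a5, the importers Slc39a1, Slc39a10 and Slc39a14, and the zinc-sensing transcription factor Mtf1. Members were chosen by symbol, and each symbol matched 1 row. The 36 libraries fell into 12 groups of 3. At 4 h and again at 24 h there were cells given the vehicle DMSO, cells given the vehicle ethanol (EtOH), cells activated with LPS at 600 ng/mL, and LPS-activated cells given 30 µM dimethyl fumarate (LPS+DMF), 30 µM monomethyl fumarate (LPS+MMF) or 6 µM cannabidiol (LPS+CBD). LPS, or lipopolysaccharide, is a bacterial cell wall component that activates microglia. The fumarates came in DMSO, CBD in ethanol and LPS in water, with vehicle at 0.2% in all treated cells and serum lowered to 0.1%. The vehicle given with LPS alone was not stated per library, so a drug and its solvent cannot be told apart in a comparison with LPS alone.

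Zinc inside a cell is held at very low free levels. ZnT proteins, encoded by the Slc30 genes, move zinc out of the cytosol, and ZIP proteins, encoded by the Slc39 genes, move it in. Metallothioneins are small cysteine-rich proteins that bind zinc, copper and cadmium and also react with oxidants. When zinc rises, MTF-1 (the product of Mtf1) binds metal response elements (MREs) near gene starts and switches on the metallothioneins and Slc30a1, while Slc39a10 is a gene known to be held down by zinc through the same factor.

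Sites that read as an MRE core, spelled TGCACNC or TGCGCNC and searched on both strands, were counted in the 500 bases around each gene's canonical start in GENCODE vM39 (GRCm39, 250 bases on either side). Mt2 held 7 matches, Mt1 held 5 and Slc30a1 held 3. Slc30a4 and Slc30a5 held 2 each, Slc39a14 held 1, and Slc39a1, Slc39a10 and Mtf1 held none. Of 12550 genes with at least 10 normalized counts in 3 or more libraries, 49% held at least 1 match, 6.88% at least 3, 0.653% at least 5 and 0.0558% at least 7. The sites nearest the start are shown for the genes whose levels moved most, on the strand of the gene, with the core in capitals and given as its reverse complement where it lay on the other strand.
Mt1, 16 bases before the start (chr8:94905684-94905710): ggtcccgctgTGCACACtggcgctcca
Mt1, 10 bases after the start (chr8:94905709-94905735): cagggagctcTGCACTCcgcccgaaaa
Mt1, 28 bases after the start (chr8:94905727-94905753): gcccgaaaagTGCGCTCggctctgcca
Mt2, 109 bases before the start (chr8:94899013-94899039): gcatcgcctcTGCACCCggcccctcgg
Mt2, 14 bases before the start (chr8:94899108-94899134): gcagacccttTGCGCTCagctcctttg
Mt2, 65 bases after the start (chr8:94899186-94899212): gggggagggcGTGTGCAggctctgtcc
Slc30a1, 235 bases before the start (chr1:191638598-191638624): cgcccgccgcTGCACCCggccgcggcc
Slc30a1, 8 bases after the start (chr1:191638840-191638866): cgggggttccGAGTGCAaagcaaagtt
Slc30a1, 81 bases after the start (chr1:191638913-191638939): cctccgggccGAGCGCAgtcgccgcgg
An antioxidant response element core, TGACNNNGC, was matched once each at Mt1, Mt2, Slc30a1 and Slc30a5 and 2 times at Slc39a1, against 21.9% of the 12550 genes with at least 1 match and 2.65% with at least 2. A match only says that these letters are there. The deposited coordinates begin Mt2 at 94899292 and Slc30a1 at 191638879, downstream of the canonical starts used here (94899132 and 191638843). Slc39a10, on the minus strand, begins in the deposited coordinates at 46932012, far upstream of the canonical start used (46893320). Its lack of a match therefore covers that canonical start only. For Mt1 the start used (94905710) is the first base of the gene, whose exons join into 1 block of 1246 bases. An annotated Mt1 transcript has only 549 bases. Whether that transcript starts further downstream was not examined, so the Mt1 positions given above, before or after the start, hold for the start used only.

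Mt1 and Mt2 lie next to each other on chromosome 8 (GRCm39, Mt1 at 94905710 to 94906955 and Mt2 at 94899292 to 94900196, both on the plus strand). Their coding sequences are 183 bases each and match at 145 positions (79.2%), but the longest stretch shared by the 2 transcripts is 20 bases, shorter than the 150-base reads. Mt2 carries another doubt. In GENCODE vM39 a long non-coding RNA gene on the opposite strand, Gm45774, covers 783 of its 950 exon bases. Whether reads were counted by strand is not given in the sources used here, so the level of Mt2 is uncertain. Opposite-strand exons also overlap part of Slc30a1 (468 of 5663 exon bases), Slc30a4, Slc30a5, Slc39a1, Slc39a10 and Mtf1, and none overlap Mt1 or Slc39a14.

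Libraries held 14110424 to 26676607 gene reads, with a median of 16230584. Levels are given as reads scaled across all 36 libraries, called normalized read counts here, as mean ± SD over 3 libraries. Fold changes come from limma, a linear model run over all genes of a pairwise table, with values taken as log2 after adding 1 to each deposited normalized count. A gene counts as called when its p, adjusted over all genes by Benjamini-Hochberg, is under 0.05. Per length, as TPM (reads per annotated exon base, scaled to the same sum in every library), the median library held 1550.1 TPM of Mt1 and 2.93 TPM of Mt2, while the transporters and Mtf1 ran from 21.1 TPM (Mtf1) to 88.7 TPM (Slc30a4). Exon bases were joined over all annotated transcripts of a gene. For Mt1 they came to 1246, against 549 in the transcript compared with Mt2, so TPM set between genes depends on this choice. Of the 11 microglial markers listed, 8 had a median of at least 10 TPM. Aif1 and P2ry12 stayed under 10 TPM in every group. Group means ran from 2.02 to 15.5 TPM for Tmem119 and from 1.08 to 17.2 TPM for Cx3cr1. The summed microglial list was lowest in LPS+DMF at 4 h (3501 TPM) and highest in LPS+CBD at 24 h (5774 TPM). Of the markers listed for other cells, Aqp4, Snap25 and Syt1 had no row in the data. The other markers of neurons, astrocytes and endothelium were under 10 TPM in each group, and the oligodendrocyte list was carried by Mbp (21.7 to 40.4 TPM). The part of these shifts in the results was not tested.

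At 4 h the single gene that CBD changed by the test was a zinc exporter. Slc30a1, the exporter that takes zinc out across the plasma membrane, read 1944, 1773 and 1416 normalized counts in the 3 LPS+CBD libraries and 764, 669.8 and 709 in the 3 LPS libraries. All LPS+CBD libraries were therefore above all LPS libraries, and the log2 fold change was 1.26 (95% interval 0.99 to 1.52, limma adjusted p = 0.034). It was 1 of 9 members called, and the only gene called among the 11424 tested, that is 0.00875% of them. Without LPS replicate 1 or 3 the adjusted p was 0.0792 or 0.321, and without LPS+CBD replicate 1 or 2 it was 0.125 or 0.388, with the log2 fold change at 1.16 to 1.31 each time.

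The next places by unadjusted p in the same comparison also went to members. Slc39a10, an importer at the plasma membrane, read 499.6, 596 and 644 with CBD and 1178, 1148 and 1027 without. No LPS+CBD library reached the lowest LPS library. Its log2 fold change was -0.94 (95% interval -1.18 to -0.70, limma adjusted p = 0.0766), which is not a call. Mt1 read 16234, 13647 and 10799.5 against 7162, 7271 and 6735, again with no overlap, at a log2 fold change of 0.93 (95% interval 0.63 to 1.23, limma adjusted p = 0.295). By unadjusted p, Slc30a1 held place 1, Slc39a10 place 2, Mt1 place 3 and Mt2 place 5 of 11424, with Pitpnc1, named after its value was seen, in place 4. The members were listed with earlier results of these data known, so these places are no independent support. The replicate numbers paired these libraries, and a limma fit with the number as a block called 4 genes, of which 3 were Slc30a1 (adjusted p = 2.09e-05), Mt1 (adjusted p = 0.000298) and Slc39a10 (adjusted p = 0.000995). The other was Ccl4, a chemokine gene. DESeq2 on the recovered reads called 3 genes and so did a single limma fit over all 36 libraries, and in both the 3 were Slc30a1, Slc39a10 and Mt1, whereas edgeR called Slc30a1 alone. Mt2 read 36.5, 43.9 and 31.5 against 8.47, 17 and 6.39. It passed the filter on low values only through the libraries in which it was high, so it could pass only by differing, and its log2 fold change was 1.81 (95% interval 0.98 to 2.65, limma adjusted p = 0.994). The remaining 5 members differed from LPS by -0.07 to 0.08 on the log2 scale and none was called, with intervals reaching no further than -0.25 and 0.30.

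**Figure D1:**
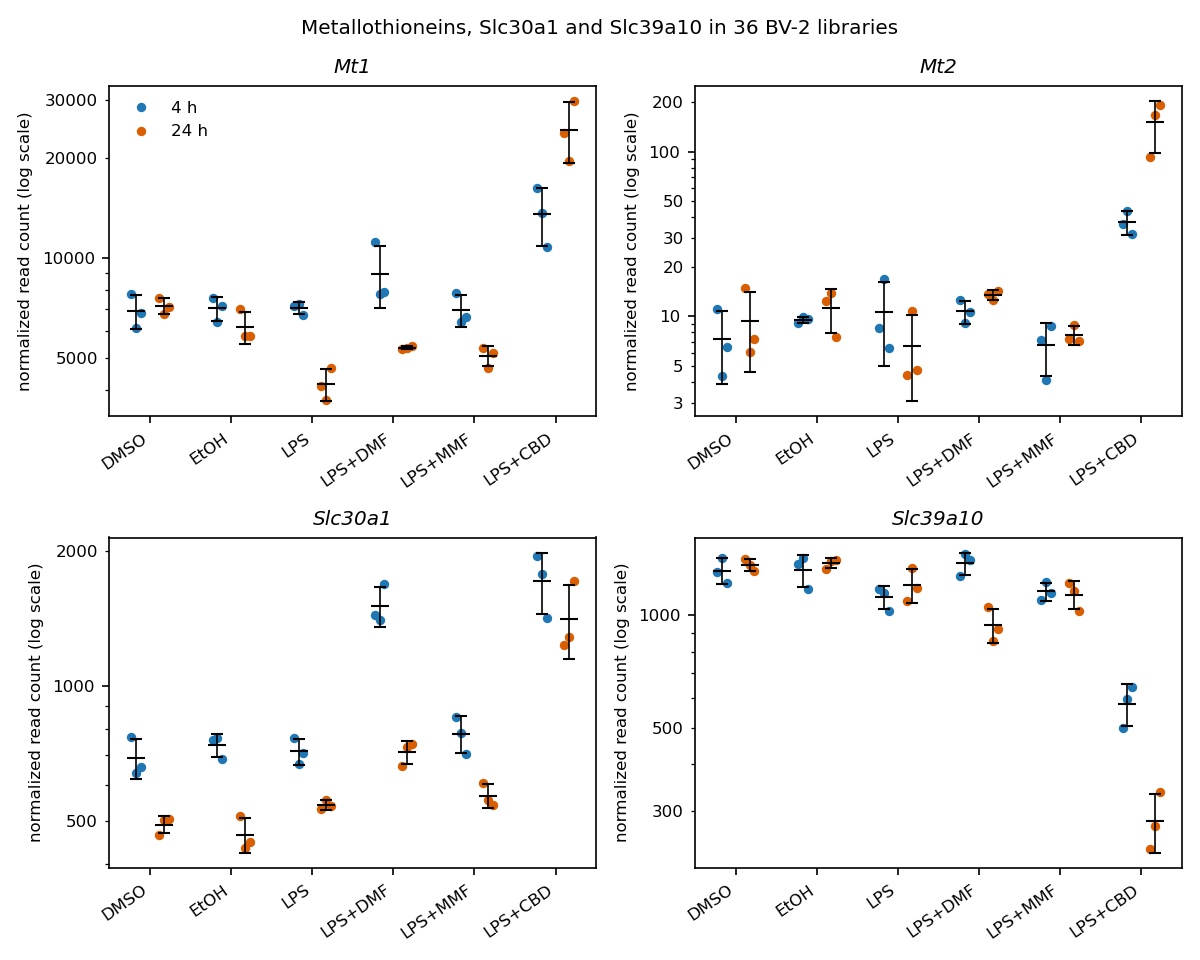
Normalized read counts (log scale) of Mt1, Mt2, Slc30a1 and Slc39a10 in each of the 36 libraries, by treatment and time; points are libraries, and bars give the mean and SD of 3. Both LPS+CBD groups stand above all other groups for Mt1 and Mt2 on their means (13560.3 and 24379 for Mt1) and below all others for Slc39a10, and Slc30a1 is also high in LPS+DMF at 4 h (1507).

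At 24 h CBD raised Mt1, Mt2, Slc30a1 and Mtf1 and lowered Slc39a10. Mt1 rose to 23799, 19610.3 and 29728 from 4110.1, 3717 and 4646 in LPS alone, a log2 fold change of 2.54 (95% interval 2.21 to 2.87, limma adjusted p = 4.1e-06). Slc39a10 fell to 236, 273 and 336 from 1092, 1338 and 1183, a log2 fold change of -2.10 (95% interval -2.40 to -1.79, limma adjusted p = 6.22e-06). Slc30a1 rose to 1234.8, 1287 and 1712 from 529.8, 556 and 540.3, a log2 fold change of 1.37 (95% interval 1.10 to 1.64, limma adjusted p = 3.16e-05). In each of these genes all LPS+CBD libraries lay outside the range of the LPS libraries, but the share of all genes with such a gap was not computed. Mt2 read 92.1, 167 and 192 against 4.43, 10.7 and 4.69 (log2 fold change 4.35, 95% interval 3.52 to 5.19, limma adjusted p = 2.74e-05), once more passing the filter only through LPS+CBD. Mtf1 rose by less, from 604, 595 and 608 to 756, 786 and 815, at a log2 fold change of 0.39 (95% interval 0.21 to 0.56, limma adjusted p = 0.00336). Thus 5 of 9 members were called, 4 higher and 1 lower, where 48.7% of all 11671 genes were called, so the share of members is near the background. The Mt2 call adds nothing to that count, as it was tested only because it was high in LPS+CBD. None of the 5 calls was lost without any 1 library. Slc39a14, which also carries iron and manganese, had a log2 fold change of -0.17 (95% interval -0.33 to -0.01, limma adjusted p = 0.076), and with the replicate block, whose numbers paired these libraries, the limma adjusted p was 0.0395. Slc30a4, Slc30a5 and Slc39a1 were not called and lay at -0.09, 0.08 and 0.15 on the log2 scale.

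DMF, an electrophilic fumarate, raised Slc30a1 early. At 4 h the LPS+DMF libraries read 1439.6, 1398 and 1684 and the LPS libraries 764, 669.8 and 709, with no overlap, and the log2 fold change was 1.07 (95% interval 0.84 to 1.30, limma adjusted p = 0.000337). It was 1 of 8 members called, against 11.1% of 11371 genes. Slc39a10 read 1275, 1457 and 1407, all above the LPS libraries, and its log2 fold change of 0.30 (95% interval 0.08 to 0.52, limma adjusted p = 0.0835) was not a call, although it was without LPS+DMF replicate 1 (adjusted p 0.0463). Mt1 read 11129, 7791 and 7908, all above the LPS libraries, at a log2 fold change of 0.32 (95% interval 0.02 to 0.62, limma adjusted p = 0.176). Mtf1 read 818, 898 and 914 against 769, 661 and 716 in LPS alone, all higher, but its log2 fold change of 0.29 (95% interval 0.07 to 0.51, limma adjusted p = 0.0988) was not a call. Slc39a1 was at -0.39 (95% interval -0.69 to -0.08, limma adjusted p = 0.112), and the fit with the replicate block, whose numbers paired these libraries, gave an adjusted p of 0.0169. Mt2, at 12.5, 9.14 and 10.6 counts, did not pass the filter on low values, which was applied on the scale of that table. Slc30a4, Slc30a5 and Slc39a14 were not called, at 0.25, -0.00 and -0.15 on the log2 scale.

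At 24 h DMF called more members, and Slc30a1 changed by less than at 4 h. Slc30a1 read 662, 729 and 741 against 529.8, 556 and 540.3, a log2 fold change of 0.39 (95% interval 0.21 to 0.57, limma adjusted p = 0.00752). Mt1 was also higher (log2 fold change 0.37, 95% interval 0.18 to 0.56, limma adjusted p = 0.0114), as were Mtf1 (0.30, 95% interval 0.13 to 0.47, limma adjusted p = 0.0167) and Slc39a14 (0.26, 95% interval 0.12 to 0.40, limma adjusted p = 0.0133), and Slc39a10 was lower (-0.36, 95% interval -0.58 to -0.13, limma adjusted p = 0.0267). These 5 of 9 members stood against 25.1% of 11670 genes. For all of them the 3 LPS+DMF libraries lay outside the LPS range, but the share of all genes with such a gap was not computed. Each call was lost without some library: without LPS+DMF replicate 3 the adjusted p was 0.05003 for Slc30a1, 0.0562 for Mt1, 0.0624 for Mtf1, 0.0698 for Slc39a14 and 0.101 for Slc39a10. Leaving out LPS+DMF replicate 2 gave 0.0659 for Mtf1 and 0.103 for Slc39a10, leaving out LPS replicate 3 gave 0.0564 for Mtf1, 0.0620 for Slc39a14 and 0.0780 for Slc39a10, and leaving out LPS replicate 2 gave 0.0537 for Slc39a10. With the replicate block Slc30a5 (log2 fold change 0.24) and Slc30a4 (-0.17) were also called, at adjusted p of 0.0212 and 0.0441. Mt2 read 13.6, 12.5 and 14.3 against 4.43, 10.7 and 4.69, all higher, at a log2 fold change of 1.02 (95% interval 0.14 to 1.91, limma adjusted p = 0.0857), and 0.0253 without LPS replicate 2. It passed the filter only through the LPS+DMF libraries. Without LPS replicate 1, Slc30a5 had an adjusted p of 0.0324.

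MMF, the monomethyl ester that the body forms from DMF, called no member at either time. At 4 h limma called 0 of 8 members tested (0.122% of 11431 genes), with 0 of them at an unadjusted p under 0.05, and edgeR and DESeq2 also called 0. Slc30a1 read 853, 786 and 704 and its log2 fold change was 0.13 (95% interval -0.09 to 0.35, limma adjusted p = 0.821), the largest of the 8, the others lying between -0.06 and 0.08. At 24 h limma, edgeR and DESeq2 again called 0 of 8 (limma called 0% of 11584 genes), with 1 member, Mt1, under an unadjusted p of 0.05. Mt1 read 5339, 4661 and 5163 against 4110.1, 3717 and 4646 in LPS alone, with all MMF libraries higher, at a log2 fold change of 0.29 (95% interval 0.07 to 0.50, limma adjusted p = 0.9995), and the fit with the replicate block, whose numbers paired these libraries, gave an adjusted p of 0.00154.

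**Figure D2:**
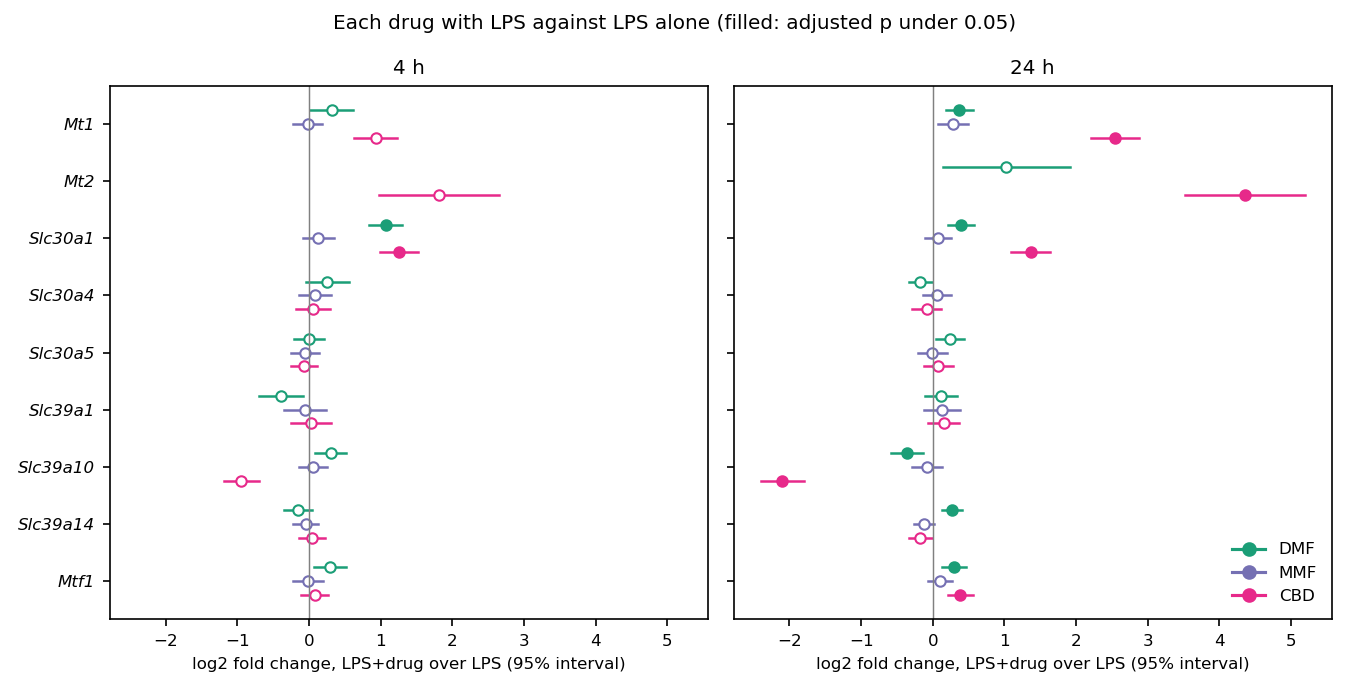
Log2 fold change of each drug with LPS over LPS alone at 4 h and 24 h for the 9 members, with 95% intervals; filled points passed an adjusted p under 0.05, and Mt2 has no point where it was too low to be tested. CBD moved Mt1, Mt2, Slc30a1 and Slc39a10 most, up to 4.35 for Mt2 at 24 h, DMF raised Slc30a1 at 4 h (1.07), and the MMF points stayed between -0.12 and 0.29.

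DMF and MMF differ by 1 methyl ester group and were given at the same dose, so they can be set against each other directly. At 4 h Slc30a1 was higher with DMF than with MMF, at a log2 fold change of 0.94 (95% interval 0.70 to 1.18, limma adjusted p = 0.00133), and no DMF library overlapped an MMF library. It was 1 of 8 members called, against 8.34% of 11377 genes. Mt1 differed by 0.34 (95% interval 0.03 to 0.65, limma adjusted p = 0.166), with overlapping libraries. At 24 h Slc39a14 (0.39, 95% interval 0.26 to 0.51, limma adjusted p = 0.00203), Slc30a1 (0.32, 95% interval 0.14 to 0.50, limma adjusted p = 0.0227) and Slc30a5 (0.24, 95% interval 0.08 to 0.40, limma adjusted p = 0.0432) were higher with DMF, 3 of 9 members against 21.5% of 11665 genes. The Slc30a1 call was lost without LPS+DMF replicate 2 or 3 or LPS+MMF replicate 3 (adjusted p 0.0755, 0.101 and 0.0832), and that of Slc30a5, which works in the early secretory pathway, without any of LPS+DMF replicates 1 to 3 (0.05002, 0.0885 and 0.17) or LPS+MMF replicates 1 and 2 (0.107 and 0.0797). With the replicate block, whose numbers paired these libraries, 6 members were called, the others being Slc39a10 (log2 fold change -0.28, adjusted p 0.00434), Slc30a4 (-0.23, 0.00678) and Mtf1 (0.20, 0.0278). Leaving out LPS+MMF replicate 3 gave an adjusted p of 0.0304 for Slc30a4, and leaving out LPS+DMF replicate 1 gave 0.0220 for Slc39a10. Mt1 at 24 h was not called, with an interval of -0.07 to 0.24 on the log2 scale.

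CBD is no ester of fumaric acid, and its dose differed from that of the fumarates (6 against 30 µM), so the following values are set side by side without a comparison of potency. Over LPS+MMF at 4 h, 4 of 9 members were called, namely Slc39a10 (log2 fold change -1.001, 95% interval -1.23 to -0.77, limma adjusted p = 0.00507), Slc30a1 (1.13, 95% interval 0.86 to 1.39, limma adjusted p = 0.00507), Mt1 (0.95, 95% interval 0.65 to 1.25, limma adjusted p = 0.0312) and Mt2 (2.35, 95% interval 1.56 to 3.14, limma adjusted p = 0.0421). Only 19 genes, or 0.166% of 11432, were called in that table, and the Mt2 call adds nothing to the count of members. In all 4 members the CBD libraries lay outside the MMF range, but the share of all genes with such a gap was not computed. The Slc39a10 call was not lost without any 1 library. Without LPS+MMF replicate 3 the adjusted p was 0.0539 for Slc30a1, 0.226 for Mt1 and 0.0908 for Mt2, without LPS+MMF replicate 2 it was 0.0910 for Mt1 and 0.0871 for Mt2, without LPS+MMF replicate 1 it was 0.0998 for Mt2, and without LPS+CBD replicate 1 or 2 it was 0.0567 or 0.0716 for Mt1. Mt2 passed the filter only through LPS+CBD.

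Over LPS+DMF at 4 h, CBD gave lower Slc39a10 (log2 fold change -1.24, 95% interval -1.49 to -0.99, limma adjusted p = 0.000256) and higher Mt1 (0.61, 95% interval 0.23 to 0.998, limma adjusted p = 0.0396), Slc39a1 (0.41, 95% interval 0.15 to 0.68, limma adjusted p = 0.0434) and Mt2 (1.71, 95% interval 1.07 to 2.35, limma adjusted p = 0.00418), 4 of 9 members against 15.5% of 11409 genes. Mt2 passed the filter only through LPS+CBD, so its call adds nothing to that count. Mt1 libraries overlapped. The Mt1 call was lost without LPS+CBD replicate 1 or 2 (adjusted p 0.133 or 0.104) or LPS+DMF replicate 2 or 3 (0.0673 or 0.142), and that of Slc39a1 without LPS+CBD replicate 2 or 3 (0.149 or 0.137) or LPS+DMF replicate 1 or 3 (0.0832 or 0.145). Slc30a1 was raised by both drugs at this time and differed between them by 0.19 (95% interval -0.09 to 0.47, limma adjusted p = 0.345). At 24 h CBD stood over DMF for Mt1 (log2 fold change 2.16, 95% interval 1.87 to 2.45, limma adjusted p = 1.09e-05), Slc30a1 (0.97, 95% interval 0.70 to 1.25, limma adjusted p = 0.000375) and Mt2 (3.32, 95% interval 2.70 to 3.95, limma adjusted p = 4.73e-05), and under it for Slc39a10 (-1.75, 95% interval -2.05 to -1.44, limma adjusted p = 3.21e-05) and Slc39a14 (-0.44, 95% interval -0.59 to -0.30, limma adjusted p = 0.000879), 5 of 9 against 38.5% of 11740 genes. Over LPS+MMF at 24 h, 5 of 9 were called as well, against 48.3% of 11716 genes: Mt1, Mt2, Slc30a1 and Mtf1 were higher by 2.26, 4.07, 1.30 and 0.28 on the log2 scale, and Slc39a10 fell by 2.02. Mt2, with 7.04 to 8.91 counts in LPS+MMF, was tested only because it was high in LPS+CBD, so its call adds nothing to that count. With the replicate block Slc30a5 also passed at 24 h as lower with CBD than with DMF, by -0.17 on the log2 scale (limma adjusted p 0.0413). The Mtf1 call over LPS+MMF was lost without LPS+MMF replicate 1 (adjusted p 0.0585).

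Whether a drug effect differed between the times was tested with an interaction term over 12 libraries. Under CBD the difference was called for 4 of 9 members (Mt1, Mt2, Slc39a10 and Mtf1), against 32% of 11959 genes. Mt2 passed the filter only through LPS+CBD, since just 2 of the 6 LPS libraries held 10 or more counts of it. Its call adds nothing to that count of members. Under DMF it was called for 3 of 9 (Slc30a1, Slc39a10 and Slc39a14), against 16.3% of 11958 genes. Under MMF limma, edgeR and DESeq2 called 0 of 8 members (limma called 0% of 11839 genes), with 1 at an unadjusted p under 0.05. For Slc30a1 under CBD the effect at 24 h minus that at 4 h was 0.12 (95% interval -0.27 to 0.50, limma adjusted p = 0.665), which is not a call.

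LPS on its own called at most 1 member in each comparison, and with so few genes this cannot be set apart from the share over all genes. At 4 h it raised Slc39a1, an importer at the plasma membrane, over DMSO: the LPS libraries read 1029.7, 1377 and 1086 and the DMSO libraries 746, 887 and 758, with no overlap and a log2 fold change of 0.53 (95% interval 0.25 to 0.81, limma adjusted p = 0.0238). It was 1 of 8 members called, against 14.1% of 11424 genes, and the call was lost without DMSO replicate 4 or 6 (adjusted p 0.0758 or 0.101) or LPS replicate 3 (0.0597). Over EtOH the log2 fold change of Slc39a1 was 0.51 (95% interval 0.20 to 0.82, limma adjusted p = 0.0522), and limma and edgeR called 0 of 8 members (10.2% of 11491 genes), DESeq2 called 1 (Slc39a1) and 2 had an unadjusted p under 0.05. Without EtOH replicate 5 its adjusted p was 0.0241. Both comparisons share the LPS libraries. At 24 h LPS lowered Mt1, from 7555, 6763 and 7127 in DMSO and 6990.1, 5790.3 and 5798 in EtOH to 4110.1, 3717 and 4646. No LPS library reached a vehicle library. The log2 fold change was -0.77 (95% interval -0.96 to -0.58, limma adjusted p = 0.000103) over DMSO, where it was 1 of 8 members called (22.7% of 11574 genes), and -0.57 (95% interval -0.78 to -0.35, limma adjusted p = 0.00177) over EtOH, where it was 1 of 9 (20.5% of 11775 genes). Slc30a1 lay higher in all LPS than in all vehicle libraries at 24 h, by 0.16 (95% interval -0.03 to 0.35, limma adjusted p = 0.213) over DMSO and 0.23 (95% interval 0.02 to 0.44, limma adjusted p = 0.112) over EtOH on the log2 scale, and was not called. Slc39a10, at -0.17 and -0.19, was not called either, but it was without LPS replicate 2 (adjusted p 0.0364 over DMSO and 0.0341 over EtOH). Between DMSO and EtOH, limma, edgeR and DESeq2 called 0 of 8 members at 4 h (limma called 0% of 11458 genes) and 0 of 9 at 24 h (0.00854% of 11715 genes), with 0 and 1 member at an unadjusted p under 0.05. Over all genes, however, DESeq2 called 79 at 4 h and 3 at 24 h, and the replicate block, whose numbers paired these libraries, called 876 and 20, with no member among them. At 4 h the members' differences between the vehicles ran from -0.09 to 0.00 on the log2 scale.

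At 24 h, when both exposure and time in culture were longer, Slc30a1 was lower than at 4 h in most groups. Between 4 and 24 h it fell by 0.51 on the log2 scale in DMSO, by 0.68 in EtOH, by 0.40 in LPS, by 1.09 in LPS+DMF and by 0.46 in LPS+MMF, with no overlap of libraries and a limma adjusted p of 0.00455 at most, and none of these calls was lost without any 1 library. In LPS+CBD its change of -0.29 (95% interval -0.61 to 0.03, limma adjusted p = 0.103) was not called, but it was without LPS+CBD 24 h replicate 3 (adjusted p 0.0126) or LPS+CBD 4 h replicate 3 (0.0388). Mt1 fell by 0.77 in LPS, by 0.72 in LPS+DMF and by 0.46 in LPS+MMF, rose by 0.84 in LPS+CBD, and was not called in DMSO (0.03) or EtOH (-0.21), though in EtOH it was without 24 h replicate 4 or 4 h replicate 5 (adjusted p 0.0111 or 0.0207). Slc39a10 fell by 0.56 in LPS+DMF and by 1.06 in LPS+CBD and was called in no other group. The number of members called was 4 of 8 in DMSO (51.6% of 11482 genes), 5 of 9 in EtOH (58.6% of 11775), 6 of 8 in LPS (48.9% of 11510), 5 of 9 in LPS+DMF (58.8% of 11602), 4 of 8 in LPS+MMF (49.5% of 11545) and 5 of 9 in LPS+CBD (63.2% of 11667). Slc30a5 was lower at 24 h in 5 of the 6 groups by a call, and Slc30a4, which loads zinc into vesicles, was higher in DMSO, EtOH and LPS. Slc39a1 was higher at 24 h in DMSO, EtOH and LPS+DMF, by 0.47, 0.43 and 0.52 on the log2 scale. Slc39a14 fell by 0.26 in LPS, by 0.33 in LPS+MMF and by 0.47 in LPS+CBD, and the call in LPS was lost without 24 h replicate 3 or 4 h replicate 1 or 3 (adjusted p 0.0804, 0.0896 and 0.0586). Mtf1 fell by 0.25 in EtOH and LPS and by 0.24 in LPS+DMF. Its call was lost in EtOH without 4 h replicate 4 (0.0594), in LPS without 24 h replicate 1, 2 or 3 or 4 h replicate 1 or 3 (0.0740, 0.0870, 0.0963, 0.152 and 0.121), and in LPS+DMF without 24 h replicate 1, 2 or 3 or 4 h replicate 2 or 3 (0.0827, 0.0736, 0.123, 0.0803 and 0.120). Mt2 rose by 1.92 in LPS+CBD. In DMSO the Slc30a5 call was lost without 24 h replicate 5 or 4 h replicate 6 (0.0508 or 0.0581). In LPS the Slc30a4 call was lost without 24 h replicate 2 or 3 or 4 h replicate 1 or 3 (0.0778, 0.0503, 0.0881 and 0.118). With the replicate block, whose numbers paired the LPS+MMF libraries, Slc30a4 and Slc39a1 were called there (adjusted p 0.0308 and 0.0225), at log2 fold changes of 0.23 and 0.21.

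**Figure D3:**
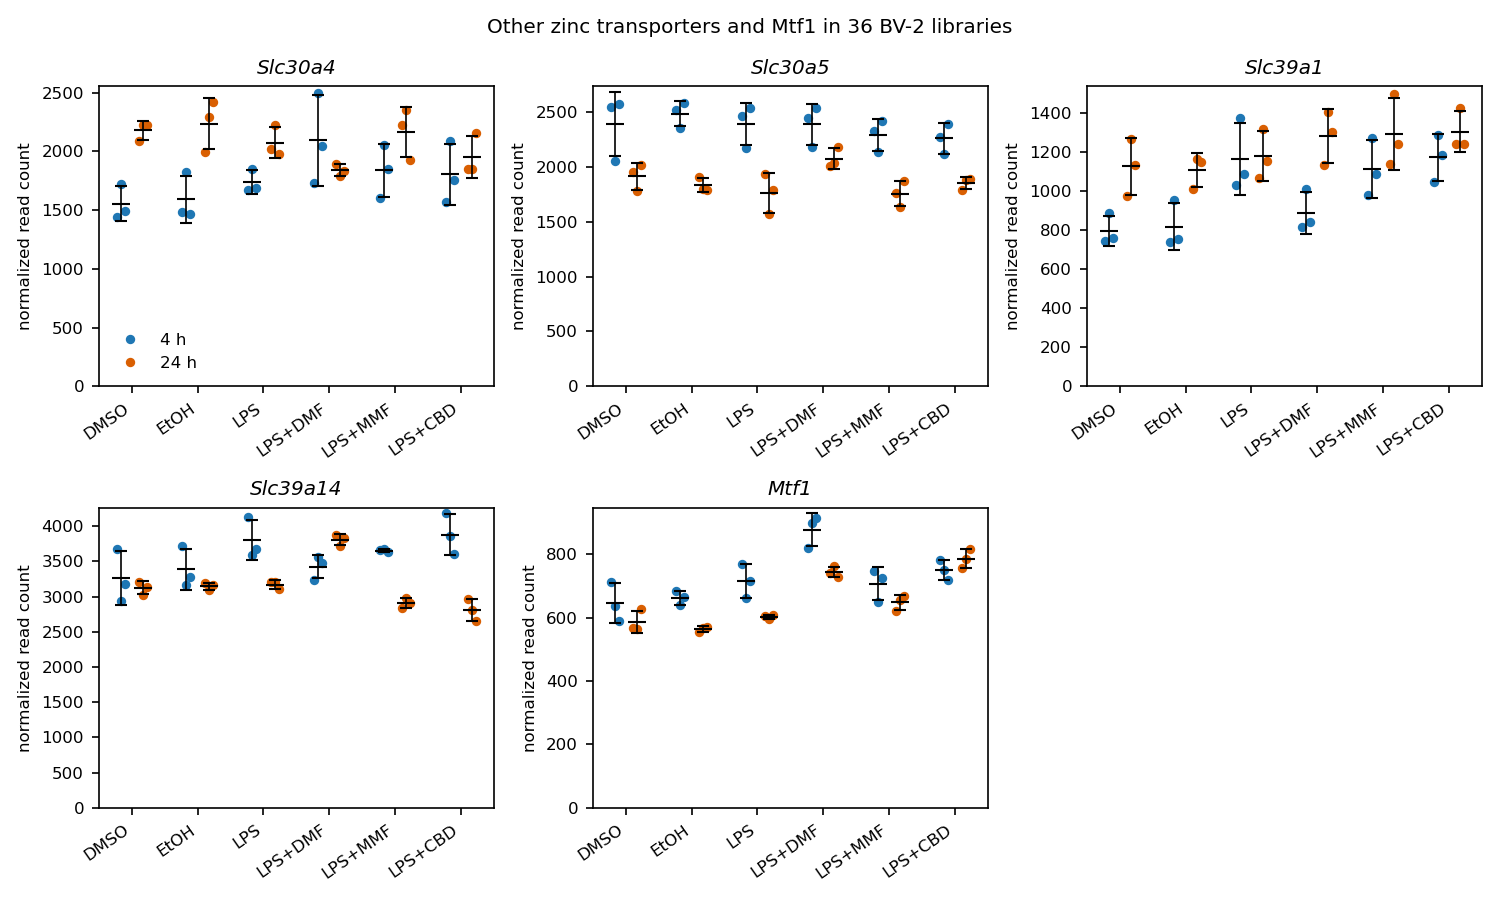
Normalized read counts of Slc30a4, Slc30a5, Slc39a1, Slc39a14 and Mtf1 in each of the 36 libraries, by treatment and time, on axes that start at 0; points are libraries, and bars give the mean and SD of 3. The spread over groups is small beside that of the metallothioneins: the highest group mean is 1.38 to 1.64 times the lowest.

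Over the 12 groups Slc30a1 was highest in LPS+CBD at 4 h (1711 ± 269, SD, n = 3), followed by LPS+DMF at 4 h (1507 ± 155) and LPS+CBD at 24 h (1411 ± 262). These 3 overlapped, and the next group, LPS+MMF at 4 h (781 ± 74.9), lay apart from them. The lowest was EtOH at 24 h (466 ± 41.3), which overlapped DMSO at 24 h (490.2 ± 21.1). Mt1 ran from 4158 ± 466 in LPS at 24 h to 24379 ± 5084 in LPS+CBD at 24 h, a ratio of 5.86, and the top group lay apart from LPS+CBD at 4 h (13560.3 ± 2719), which overlapped LPS+DMF at 4 h (8943 ± 1895). Mt2 had the same end groups, from 6.62 ± 3.57 to 151 ± 52.2, and LPS+CBD at 4 h (37.3 ± 6.25) lay apart from both its neighbours. Its reads numbered 4 to 225 per library, and the 10 groups without CBD overlapped each neighbour in order. Slc39a10 was lowest in LPS+CBD at 24 h (282 ± 50.5) and next in LPS+CBD at 4 h (580.0 ± 73.7), both apart from LPS+DMF at 24 h (942 ± 99.8), while the 9 groups above overlapped their neighbours and peaked in EtOH at 24 h (1380.3 ± 41.7). Mtf1 peaked in LPS+DMF at 4 h (877 ± 51.2), apart from the next group on this scale, LPS+CBD at 24 h (786 ± 29.5). As TPM these groups overlapped, at 22.6 to 26.6 and 23.2 to 25.7.

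Likeness of pattern was described by Pearson's r over the 12 group means of log2 level, among about 10100 genes with a mean of at least 50 normalized counts, and all points share the same libraries. The gene most like Slc30a1 was Mtf1 (r = 0.876), followed by Cldnd1 (0.866) and Tmem33 (0.865). For Mt2 it was Mt1 (0.908), then Vipas39 (0.902) and Stt3a (0.900). For Mt1 they were Zmat5 (0.934), Zscan26 (0.912) and Stt3a (0.891), Mt2 itself being under the mean of 50. Slc39a10 had a negative r over the 12 group means, at -0.833 with Mt1 and -0.953 with Mt2. Both LPS+CBD groups held the top places for Mt1 and Mt2 and the lowest for Slc39a10. An r without them was not computed, so an opposite course in the other groups is not shown.

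Of 23 other genes listed for zinc handling, 12 to 14 passed the filter on low values in a given comparison, and Mt3, Mt4, Slc30a2, Slc30a3, Slc30a8, Slc30a10, Slc39a8, Slc39a12 and Tmem163 were tested in none. CBD at 24 h called 10 of 13 (8 higher, 2 lower), where 48.7% of all genes were called, and the median log2 fold change of the 13 was 0.46 against -0.00 over all genes. Slc39a4, an importer best known from intestinal zinc uptake, went down from 2813 ± 229.5 to 842 ± 102 normalized counts at a log2 fold change of -1.74 (95% interval -1.97 to -1.51, limma adjusted p = 4.65e-06). Mcoln1, a cation channel of the lysosome, went up from 1607 ± 141 to 3201 ± 311 (0.998, 95% interval 0.78 to 1.21, limma adjusted p = 4.74e-05). Slc39a11, Slc39a3 and Slc39a7, which are further ZIP genes, were higher by 0.90, 0.78 and 0.67 on the log2 scale, and Slc39a13 was lower (-0.54, 95% interval -0.83 to -0.26, limma adjusted p = 0.0067). None of these 6 calls was lost without any 1 library.

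DMF called 1 of 13 of these genes at 4 h, where 11.1% of all genes were called, Slc39a13 (log2 fold change -0.58 (95% interval -0.83 to -0.32, limma adjusted p = 0.0109), lost without LPS replicate 3 at an adjusted p of 0.0588), and 2 of 14 at 24 h, where 25.1% of all genes were called, Slc39a7 (0.66, 95% interval 0.35 to 0.98, limma adjusted p = 0.00783) and Slc39a3 (0.43, 95% interval 0.16 to 0.70, limma adjusted p = 0.0285). The Slc39a3 call was lost without LPS replicate 1 or 3 (0.0791 or 0.0800) or LPS+DMF replicate 2 or 3 (0.0811 or 0.117). With MMF the log2 fold changes ran from -0.22 to 0.25 at 4 h and from -0.26 to 0.42 at 24 h, and with CBD at 4 h from -0.33 to 0.07. LPS itself raised Slc39a4 at both times, over DMSO by 0.60 and 1.31 and over EtOH by 0.55 and 1.38 on the log2 scale. At 24 h the vehicles read 1155 ± 208 (DMSO) and 1092 ± 115 (EtOH). The call over EtOH at 4 h was lost without EtOH replicate 6 (adjusted p 0.0508). LPS at 24 h lowered Mcoln1 by 0.37 over DMSO and 0.30 over EtOH, calls lost without DMSO replicate 5 (0.0572) and without EtOH replicate 5 or 6 or LPS replicate 1 or 3 (0.0842, 0.0977, 0.0805 and 0.0547), and Trpm7, a channel that carries zinc and magnesium, by 0.23 over DMSO, lost without DMSO replicate 4 or 6 or LPS replicate 1 or 3 (0.108, 0.129, 0.0713 and 0.142).

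**Figure D4:**
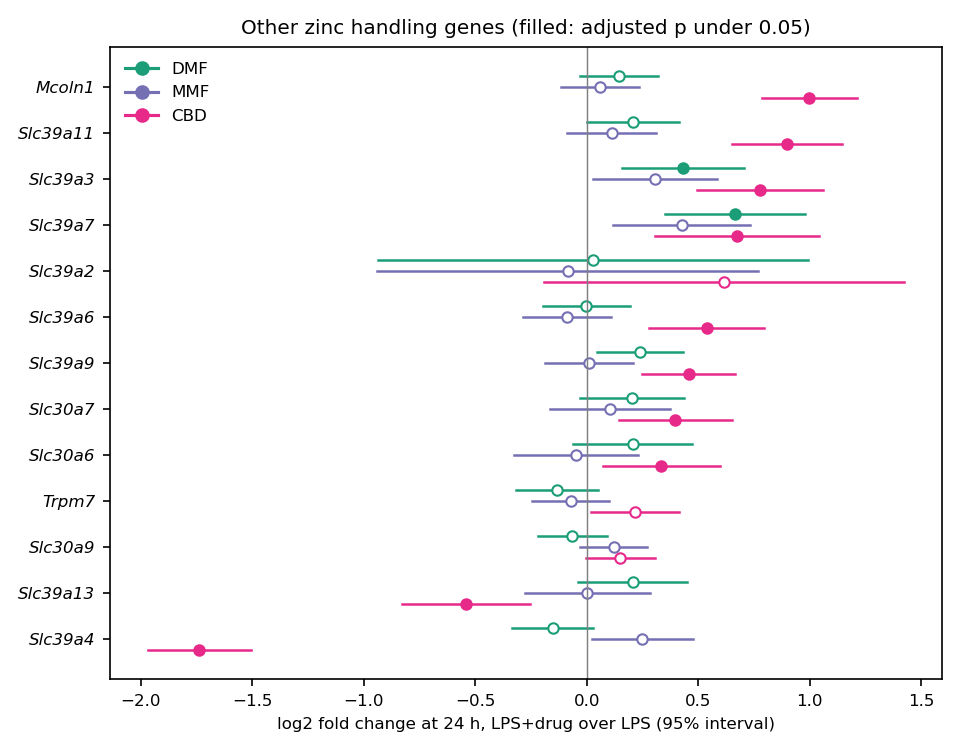
Log2 fold change at 24 h of each drug with LPS over LPS alone for 13 other genes of zinc handling, with 95% intervals; filled points passed an adjusted p under 0.05. CBD points range from -1.74 (Slc39a4) to 0.998 (Mcoln1), 10 of them filled, while 2 DMF points and no MMF point are filled.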

How the data were processed

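Poly(A) RNA of BV-2 cells was sequenced in 36 libraries, 12 groups of 3. The labels say that experiments were repeated 3 times but not whether cultures were separate, so p-values measure the spread between these libraries, which may be technical. The deposited signal values are gene read counts that the authors divided by DESeq2 size factors within each of 30 pairwise tables. The submitters' processing notes name FastQC 0.12.1, cutadapt 4.4, Trimmomatic 0.39, HISAT2 2.2.1, HTSeq 2.0.3, R 4.3.1 and DESeq2 1.40.2, and the strand setting of the counting is not given in the sources used here. The tables also hold the authors' own fold changes and p-values, which were not used.

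Each comparison was fitted with limma 3.58.1 (R 4.3.3, trend) on log2(normalized count + 1) of its 6 libraries, for genes with 10 or more in at least 3 of them, with Benjamini-Hochberg adjustment over all genes. Interactions used 12 libraries scaled jointly. Whole reads were recovered from 100% of values (within 0.01 reads) and served for levels, edgeR 4.0.16 and DESeq2 1.42.0. The other alternatives were a pseudocount of 5, no filter, 1 fit over 36 libraries, a replicate block and leaving out each library. Replicate numbers come from the labels, and they were taken to pair libraries where every same-numbered pair's deviations correlated over 0.1. That held for all drug comparisons (lowest r 0.130) except MMF vs LPS 4 h (0.0808) and DMF vs MMF 4 h (0.0426), for DMSO vs EtOH, and for time in LPS and LPS+MMF. LPS and vehicle groups share no numbers. Fits were tested on simulated data. Members and gene lists were chosen with earlier results of these data known. The rule was to name all members in each comparison, and members that were not called are in places given by count or range only. Other zinc genes were named by a call, at most 6 per comparison of LPS or a drug.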

Additional observations from a re-analysis of the deposited data

Results flagged for a closer look

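The effect of a drug at 24 h minus its effect at 4 h, both against LPS alone, was tested by an interaction term in limma over 12 libraries, and it passed an adjusted p of 0.05 in 7 instances. Under CBD the difference was 1.61 on the log2 scale for Mt1 (adjusted p = 0.000125) and 2.53 for Mt2 (adjusted p = 0.00362), both larger at 24 h, although Mt2 passed the filter on low values only through the LPS+CBD libraries, so its call carries no weight of its own. From 4 h to 24 h Mt1 fell by 0.77 on the log2 scale in LPS alone and rose by 0.84 in LPS+CBD, and both changes enter its difference. For Slc39a10 the difference was -1.15 (adjusted p = 0.000415), a deeper fall at 24 h. For Mtf1 it was 0.31 (adjusted p = 0.0403), and this call was lost without any 1 of 9 of the 12 libraries: LPS 4 h replicate 1 or 3 (0.0978 or 0.0782), LPS 24 h replicate 1, 2 or 3 (0.0614, 0.0630 and 0.0668), LPS+CBD 4 h replicate 2 or 3 (0.0693 or 0.0897) and LPS+CBD 24 h replicate 2 or 3 (0.0630 or 0.0880).

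Under DMF the difference was -0.68 for Slc30a1 (adjusted p = 0.00278), smaller at 24 h than at 4 h. For Slc39a10 it was -0.66 (adjusted p = 0.00660), from 0.30 at 4 h to -0.36 at 24 h. For Slc39a14 it was 0.41 (adjusted p = 0.0152), from -0.15 to 0.26. The 3 calls under DMF, and those of Mt1 and Slc39a10 under CBD, each remained without any 1 library.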

How the results depend on the processing

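Of 231 tests of members, 73 were calls, and none changed sign. Wherever an alternative that did not drop a library gave an adjusted p, 69 of them stayed calls, and 51 also did without any 1 library. A missing adjusted p was not counted as a loss. DESeq2 called 3 members for CBD vs MMF 4 h, against 4 in the main fit. The replicate block covered 70 of the 73 calls. Mt2 in CBD vs MMF 24 h is among the 51, but it was tested in 3 omissions only, since without an LPS+CBD library it failed the filter. Some other Mt2 calls among the 73 and the 51 also passed the filter only through LPS+CBD and add nothing to these totals. With all 36 libraries in 1 fit, members called were 2 for LPS vs DMSO 4 h, 1 for LPS vs EtOH 4 h, 4 for DMF vs LPS 4 h, 3 for CBD vs LPS 4 h and 2 for DMF vs MMF 4 h. DESeq2 called 1 for LPS vs EtOH 4 h and 3 for CBD vs LPS 4 h, and with no filter CBD vs LPS 4 h called 2. With the replicate block the members called were 2 for DMF vs LPS 4 h, 3 for CBD vs LPS 4 h, 1 for MMF vs LPS 24 h and 6 for DMF vs MMF 24 h. Where the numbers do not pair the libraries, the block gave 3 for DMF vs MMF 4 h and 5 for the DMF effect at 24 h against 4 h. It ended no call. The Mtf1 interaction under CBD had an adjusted p of 0.0540 with no filter. The log2 ratio of the highest over the lowest group of Mtf1 was 0.64, and 0.55 on counts per library total. Leaving out 1 library gave 0 to 1 members called for LPS vs DMSO 4 h, LPS vs EtOH 4 h and CBD vs LPS 4 h, 1 to 2 for both LPS comparisons at 24 h, DMF vs LPS 4 h and DMF vs MMF 4 h, 0 to 6 for DMF vs LPS 24 h, 2 to 3 for CBD vs DMF 4 h, 1 to 3 for CBD vs MMF 4 h and DMF vs MMF 24 h, and 3 to 6 for 24 h vs 4 h in LPS. Over all genes, MMF vs LPS 4 h called 14, but 54 with DESeq2, 55 in the fit over 36 libraries and 179 with the block. MMF vs LPS 24 h called 0, but 3 with no filter, 17 with DESeq2, 6 in the fit over 36 libraries and 206 with the block. DMSO vs EtOH 4 h called 0, but 79 with DESeq2, 3 in the fit over 36 libraries and 876 with the block, and DMSO vs EtOH 24 h called 1, but 3 with DESeq2, 0 in the fit over 36 libraries and 20 with the block. CBD vs MMF 4 h called 19, but 73 with DESeq2, 30 in the fit over 36 libraries and 889 with the block. The cause of these differences was not tested. Mt2 had 4 to 225 reads per library, so small differences in it were not detectable at this depth.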

Other observations

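Among the 14 other zinc handling genes tested for an interaction, the CBD effect differed between 24 h and 4 h for 8 (6 higher and 2 lower at 24 h, median 0.42 on the log2 scale against -0.01 over all genes), where 32% of all genes were called, and the DMF effect for 1, where 16.3% of all genes were called.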
